A study of Mus musculus with 4 samples.

Results

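Chromatin remodellers and bromodomain genes were examined in RNA sequenced from primary mouse T cells. The genes were taken by symbol: every gene named as a SMARCA to SMARCE, ARID, CHD, INO80, BRD or ACTL6 gene, or Pbrm1. The rule used no measured value, and it found 50 genes among the 50600 listed. Of these, 49 are annotated as protein coding and 1, Ino80dos, as a long intergenic noncoding RNA. Ino80dos and Brd3os, named for a neighbouring gene on the other strand, entered through their names alone. The members lie on 19 chromosomes, with Smarca1 the 1 member on X.

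The mice were C57BL/6NJ, an inbred laboratory substrain, with no treatment or genetic change in the labels. All 4 libraries are biological replicates of 1 group, so there is no treated or mutant arm, and the questions were which of these genes were expressed, in what proportion to their relatives, and how steadily. Age and developmental stage are given as unknown and sex as not collected. The 4 libraries share 1 donor entry, and the labels do not say whether they came from separate animals or cultures, so each p-value measures only the spread between these libraries, which may be technical. The headers of the files also carry the terms Th0 (CD4 T cells stimulated with no polarising cytokine), activated and 48 h, which are not in the labels, and the linked protocol is for CD4+ T cell differentiation. Total RNA-seq is the stated assay, although the library protocol linked to it names polyA+ RNA.

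Chromatin remodellers are enzymes of the SNF2 family that spend ATP to slide, evict or exchange nucleosomes. They fall into 4 classical families, SWI/SNF (BAF and PBAF), ISWI, CHD and INO80, and most work in complexes whose variable subunits come from small sets of related genes. ARID proteins carry an AT-rich DNA-binding domain, and bromodomains bind acetylated lysines on histone tails. In T cells, BAF and the CHD4-containing NuRD complex are known for roles in thymic development and in the choice of lineage, and BET bromodomain proteins for the transcription of cytokine and cell cycle genes.

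Counts assigned to genes totalled 56904311, 45110199, 127755788 and 53379135 in replicates 1 to 4, so replicate 3 was 2.83-fold deeper than replicate 2, the shallowest. A count of 3, used here as the floor, equals 0.0235 to 0.0665 CPM, the counts of a gene scaled to the library total. The T cell identity of the samples was checked with marker genes. All 10 T cell markers lay above 1 CPM and summed to 4007 to 4086 CPM per library. Markers of B, myeloid, dendritic, NK and erythroid cells were near 0: the summed level of each of these lists was at most 7.33 CPM in any library, and Lyz2, S100a8, Clec9a, Klra8 and Klre1 had no count. Of those lists, Adgre1 (2.60 CPM), Zbtb46 (5.76 CPM) and Eomes (2.34 CPM) lay above 1 CPM, as did the CD8 chain gene Cd8b1 (9.62 CPM), while Cd8a lay below at 0.279 CPM. The stromal and endothelial list summed to 27.4 to 30.7 CPM, carried by Pecam1 (26.9 CPM) with Epcam at 1.47 CPM and no count for Cdh5.

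Expression was widespread among the members. Of the 50 genes, 43 lay above 1 CPM, 3 lay below, 2 could not be placed on either side and 2 had no count in any library. The test was limma on log2(CPM + 0.1) against 1 CPM, adjusted over 23365 genes with at least 1 count, of which 47.4% were called above and 48.3% below. Among all 21764 protein-coding genes listed, 48.0% lay above. Each of the 43 was above in 4 of 4 libraries, and the largest adjusted p among them in limma was 1.39e-14. Together the members took 0.655%, 0.686%, 0.692% and 0.689% of the counts in replicates 1 to 4, a mean of 0.681% ± 0.0176 (SD, n = 4). In bulk RNA a low level in every cell and a higher level in few cells cannot be told apart.

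Levels of different genes were compared in TPM, which divides counts by each gene's summed exon length. The 43 members above 1 CPM ranged from 8.77 TPM (Chd9) to 476.5 TPM (Chd4), a 54.3-fold range. Their median was 47.4 TPM, beside 34.4 TPM for all coding genes above 1 CPM, and 29 of the 43 lay over that coding median. In CPM, which is not corrected for length, the medians were 96.3 and 43.4. The members are long genes, with a median summed exon length of 7976 bases against 4303 for coding genes above 1 CPM. The 9 members over 100 TPM included Chd4, Brd2, Smarca4, Smarcc1, Smarcd2, Actl6a, Arid1a and Smarca5.

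**Figure D1:**
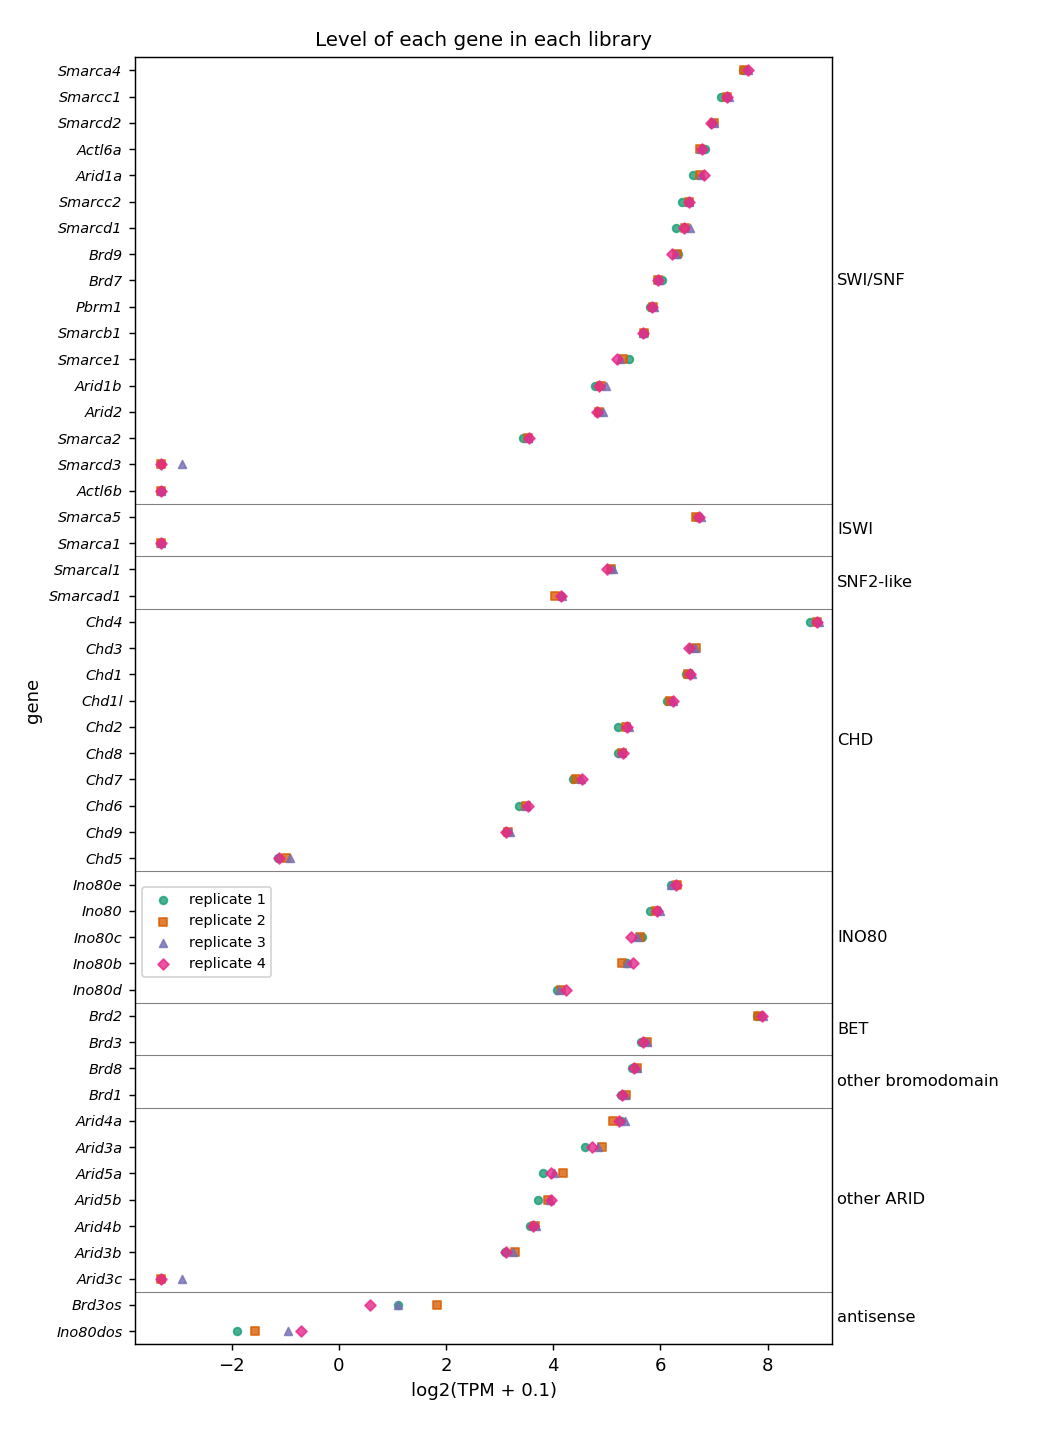
Level of 49 of the genes as log2(TPM + 0.1) on the horizontal axis, with 1 point per library and the genes grouped by family. Chd4 stands highest at a mean of 476.5 TPM, and Smarcd3, Arid3c, Actl6b and Smarca1 lie at or near 0, at the left edge.

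The DNA just before the transcript start was compared between members above 1 CPM and members that were not, since most lay above and a few of their close relatives did not. RefSeq promoter windows (GRCm38.p6) matched 38 of the 50 members, 31 of them above 1 CPM and 7 not. In 30 of the 38 the RefSeq start lay within 500 bases of the start of the deposited gene model. More distant starts included those of Smarcd3 (22409 bases) and Ino80dos (1393 bases) among the 7. Among the 31 they included Brd3 (32264 bases), Smarcc1 (14316 bases) and Smarcd2 (5340 bases). Shown here are the 250 bases before the start of 2 expressed members, Chd4 and Smarca4, and of 2 members near or below the limit of expression, Chd5 and Arid3c. Capitals mark CpG dinucleotides, and each runs 5′ to 3′ on the strand of its gene. They lie at chr6:125095731-125095980 (plus strand, Chd4), chr9:21615919-21616168 (plus strand, Smarca4), chr4:152338401-152338650 (plus strand, Chd5) and chr4:41731143-41731392 (minus strand, Arid3c).
Chd4: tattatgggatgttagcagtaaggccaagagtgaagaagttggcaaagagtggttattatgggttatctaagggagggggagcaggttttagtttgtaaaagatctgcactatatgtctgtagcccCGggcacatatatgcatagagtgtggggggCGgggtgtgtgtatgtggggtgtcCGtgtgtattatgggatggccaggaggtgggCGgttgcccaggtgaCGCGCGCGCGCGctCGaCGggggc
Smarca4: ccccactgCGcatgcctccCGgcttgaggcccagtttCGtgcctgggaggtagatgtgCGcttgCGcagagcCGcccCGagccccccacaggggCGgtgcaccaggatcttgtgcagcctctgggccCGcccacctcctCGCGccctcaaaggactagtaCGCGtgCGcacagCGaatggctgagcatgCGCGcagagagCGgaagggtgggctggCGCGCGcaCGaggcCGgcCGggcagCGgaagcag
Chd5: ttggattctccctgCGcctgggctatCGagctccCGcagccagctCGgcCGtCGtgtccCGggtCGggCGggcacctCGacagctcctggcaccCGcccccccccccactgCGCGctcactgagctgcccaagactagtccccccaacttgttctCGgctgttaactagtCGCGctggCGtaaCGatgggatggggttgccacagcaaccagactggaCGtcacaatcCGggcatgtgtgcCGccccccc
Arid3c: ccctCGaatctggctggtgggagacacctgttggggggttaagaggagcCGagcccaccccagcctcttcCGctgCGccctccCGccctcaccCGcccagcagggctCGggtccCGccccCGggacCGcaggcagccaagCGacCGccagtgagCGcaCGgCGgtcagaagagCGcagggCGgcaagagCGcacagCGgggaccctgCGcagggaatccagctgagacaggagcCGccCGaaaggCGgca
The window of Chd4, the most abundant member, holds 12 CpGs in 54% G and C, most of them in a run beside the start. That of Smarca4 holds 25 CpGs in 70.8% G and C. The windows of Chd5 and Arid3c are as rich, with 21 CpGs in 67.2% and 23 CpGs in 72% G and C.

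Over the matched members, the median was 21 CpGs per 250 bases both in the 31 above 1 CPM (4 to 40) and in the 7 that were not (6 to 38). The median was 6 over all 27025 promoters in the RefSeq table, 17 over 8596 genes above 1 CPM and 3 over 10859 genes below it or with no count. The 2 members named for a neighbouring gene had 6 CpGs (Brd3os) and 23 CpGs (Ino80dos) in their windows. The RefSeq start of Ino80dos lay 1393 bases past the start of its deposited model, and its window lay within the span of Ino80d. These 2 counts are therefore not a like comparison. Of 4 short motifs searched on both strands, GGGCGG was found in 23 of the 31 members above 1 CPM (74.2%) and in 6 of the other 7, against 33.1% of all promoters and 61.8% of those of genes above 1 CPM. CCGGAAG was found in 6 of 31 and 0 of 7 (7.13% of all promoters, 16.0% of those of genes above 1 CPM), CACGTG in 2 of 31 or 6.45% (6.03% of all, 8.79% of those of genes above 1 CPM) and TATAAA in 2 of 31 or 6.45% (12.9% of all, 5.64% of those of genes above 1 CPM). Neither was found in the other 7. The first 3 motifs each hold a CpG that is also in the CpG count. A match is a run of letters and not a measured binding site.

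**Figure D2:**
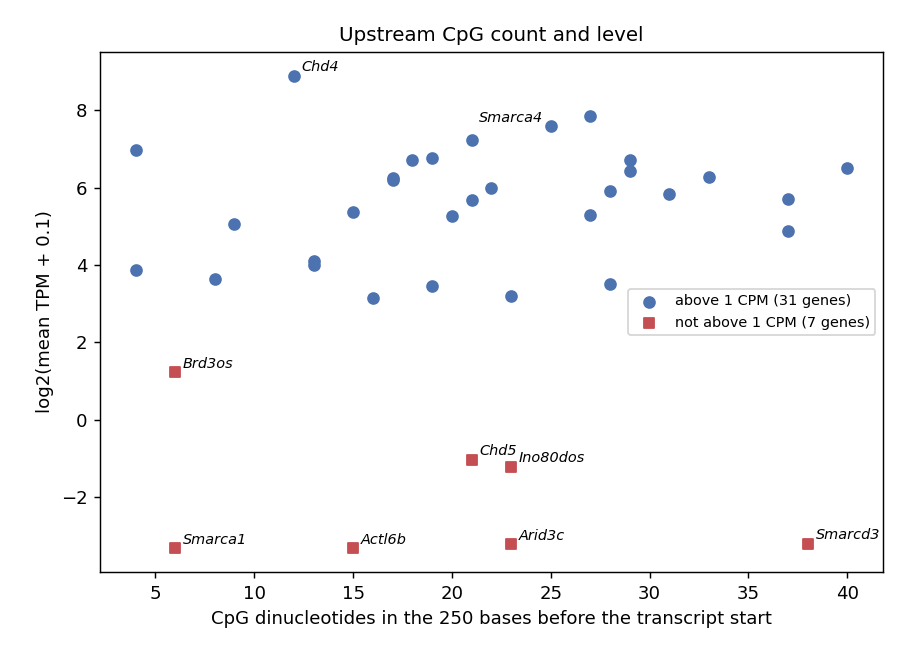
Number of CpG dinucleotides in the 250 bases before the transcript start against log2(mean TPM + 0.1), for the 38 members with a RefSeq window. The 7 members not above 1 CPM, in red squares, span 6 to 38 CpGs, within the 4 to 40 of the 31 members above 1 CPM. The point at 38 is Smarcd3, whose RefSeq start lies 22409 bases from the start of the deposited model.

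The SWI/SNF complexes are built on 1 of 2 ATPases, SMARCA4 (BRG1) or SMARCA2 (BRM), and the first was by far the more abundant transcript. Smarca4 (chr9:21616169-21704230, plus strand) stood at 185, 189, 197 and 198 TPM in replicates 1 to 4, and Smarca2 (chr19:26605050-26778322, plus strand) at 10.7, 11.4, 11.5 and 11.6 TPM. The libraries did not overlap, and the ratio hardly moved. Smarca4 made up 94.5% ± 0.107 (SD, n = 4) of the pair's summed TPM. The log2 difference of 4.08 ± 0.03 had the same sign in 4 of 4 libraries, with an exact two-sided sign-flip p of 1 in 8, the smallest that 4 libraries allow. Smarca2 nevertheless lay well above the limit of expression, at 46.9 ± 1.44 CPM. Smarca4 was at 363 CPM, so the gap was smaller without the length correction.

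Of the 17 SWI/SNF genes, 15 lay above 1 CPM and their TPM summed to 1217 ± 23.8. Among the core subunits that form the scaffold, Smarcc1 (BAF155) had 141, 151, 154 and 150 TPM and its relative Smarcc2 (BAF170) had 84.2, 92.1, 92.5 and 92.2 TPM. Smarcc1 took 62.3% ± 0.298 of the pair, and replicate 1 was the lowest for both. Over 1008 aligned bases, 17.5% of its longest transcript, Smarcc1 has 95.2% identity with Gm7004. Smarcb1 (BAF47, also SNF5), a core subunit that contacts the nucleosome and has no relative among the members, was the steadiest member above 1 CPM, at 118 ± 1.80 CPM and 51.1 ± 0.418 TPM. Smarce1 (BAF57), an HMG-box subunit, was at 38.9 ± 2.64 TPM and ran the other way from most of the members, with its highest level of 82.7 CPM in replicate 1 and 76.7, 72.02 and 70.4 CPM in the others.

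The SMARCD position (BAF60) can be filled by 3 alternative proteins. Smarcd2 was at 125, 128, 128 and 122 TPM and Smarcd1 at 78.6, 88.3, 93.6 and 87.2 TPM. Smarcd2 thus exceeded Smarcd1 in 4 of 4 libraries, by a log2 difference of 0.53 ± 0.09 (exact p of 1 in 8), with 59.2% against 40.8% of the TPM of the 3 genes. Smarcd3 (BAF60C), known for heart and muscle, had 6 counts in total, all in replicate 3, and was called below 1 CPM (limma adjusted p = 2.37e-09). Without replicate 3 it had no count, and there was nothing to test. Of its exon bases, 48.2% overlap Chpf2 (43.7 CPM) on the opposite strand.

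At the actin-like position, 1 of the relatives had no count. Actl6a (BAF53A), the form of dividing cells, had 114, 106, 108 and 110 TPM. Actl6b (BAF53B), the form of mature neurons, had no count in any of the 4 libraries against 34858 counts for Actl6a, so that Actl6a was at least 12758.5-fold higher per length, taking 3 counts over all libraries as the floor for Actl6b.

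The ARID subunits set which SWI/SNF complex is formed: ARID1A or ARID1B mark BAF, and ARID2 marks PBAF. Arid1a was at 96.9, 107, 108 and 112 TPM. Arid1b was at 27.2, 29.5, 31.6 and 28.7 TPM, and Arid2 at 28.3, 28.8, 30.2 and 28.02 TPM. Arid1a exceeded both in every library and took 64.5% ± 1.30 of the TPM of the 3 genes, with log2 differences of 1.85 ± 0.08 over Arid1b and 1.87 ± 0.09 over Arid2 (exact p of 1 in 8 for each). The shares of Arid1b (17.8% ± 0.647) and Arid2 (17.6% ± 0.793) were nearly equal, and their TPM overlapped between libraries. Without the length correction their levels did not overlap, with means of 107 CPM for Arid1b and 90.1 CPM for Arid2.

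Pbrm1 (BAF180), the PBAF subunit with a tandem array of bromodomains, was at 57.6 ± 1.45 TPM. Brd7, also of PBAF, was at 63.0 ± 1.62 TPM and exceeded Pbrm1 in 4 of 4 libraries by a small log2 difference of 0.13 ± 0.07. Brd9, of the non-canonical BAF complex, was at 77.6 ± 2.74 TPM and exceeded Brd7 by 0.30 ± 0.04 on the log2 scale in 4 of 4 libraries. Both orders depend on gene length. In CPM, without the length correction, Brd7 (96.3 CPM) exceeded Brd9 (54.4 CPM), and Pbrm1 (148 CPM) exceeded Brd7.

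The other BAF and PBAF subunits, a list of 13 genes, had 10 above 1 CPM. The highest were Phf10 (91.3 TPM), of PBAF, then Ss18 (74.0 TPM) and Dpf2 (58.8 TPM), of BAF. Dpf3 (0.309 CPM), a muscle and neuronal form, and Bcl11a (0.113 CPM), a zinc finger factor of B cells and progenitors, lay below 1 CPM, and Dpf1 (1.22 CPM), a neuronal form, could not be placed.

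**Figure D3:**
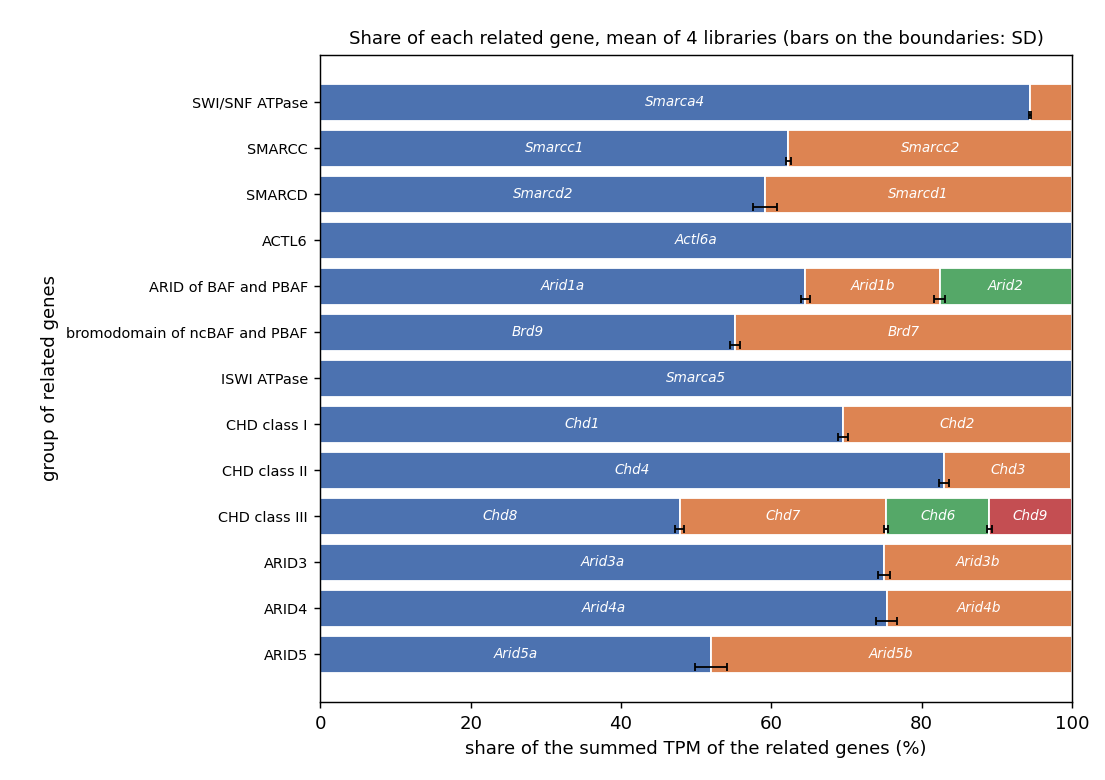
Share of the summed TPM taken by each gene among its close relatives, as the mean of 4 libraries, with a bar at the left edge of each later segment giving the SD of its share. Smarca4 (94.5%) and Chd4 (83.0%) dominate their groups, whereas Arid5a and Arid5b divide theirs almost evenly.

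The ISWI family slides nucleosomes into regular arrays and has 2 ATPase genes in the mouse. Smarca5 (SNF2H) was at 103, 101, 108 and 106 TPM. Smarca1 (SNF2L), the form enriched in neurons and gonads, had no count in any library against 67379 counts for Smarca5, a level at least 17668.5-fold higher per length with the floor of 3 counts over all libraries. Smarca5 has 6 near-identical copies in the annotation, with 96.8% to 98.1% identity over 2871 to 3181 bases. That is 47.0% to 52.0% of its longest transcript. The copies summed to 1.71 CPM beside 237 CPM for Smarca5 itself. For reads that fit several places, the treatment during counting is not stated in the labels or headers. Of 9 ISWI partner genes, 8 lay above 1 CPM, led by Baz1b (WSTF, 123 TPM), the histone-fold subunit gene Pole3 (107 TPM) and Baz1a (ACF1, 96.2 TPM), while Cecr2 (0.881 CPM) could not be placed.

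Smarcal1, an annealing helicase of stalled replication forks, and Smarcad1, a remodeller of DNA end resection and heterochromatin, stand outside the main complexes. They were at 33.4 ± 1.04 and 17.3 ± 0.613 TPM. Of 13 other SNF2-family ATPases, 13 lay above 1 CPM, with Hells (LSH, 126 TPM), Btaf1 (63.1 TPM) and Ttf2 (57.7 TPM) the highest.

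The CHD genes held the most abundant member. Chd4 (chr6:125095981-125130591, plus strand), the ATPase of the NuRD deacetylase complex, was at 445, 484, 495 and 483 TPM, with replicate 1 the lowest. Chd3, its alternative in NuRD, was at 94.9, 101, 99.6 and 92.6 TPM, and Chd5, the neuronal form, at 0.356, 0.404, 0.434 and 0.362 TPM. None of the libraries overlapped between these 3 genes. Chd4 took 83.0% ± 0.652 of the TPM of the class, Chd3 took 16.9% ± 0.651 and Chd5 took 0.0677%. The log2 difference of Chd4 over Chd3 was 2.29 ± 0.07 (exact p of 1 in 8).

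Chd5 (chr4:152338651-152390194, plus strand) was counted in every library, with 57, 51, 153 and 54 counts, and its mean of 1.09 ± 0.10 CPM could not be placed against 1 CPM (limma adjusted p = 0.594). Tested in TPM, which takes its exon length into account, it lay below the threshold of 1 (log2 difference of -1.17, limma adjusted p = 0.00435).

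Chd4 also exceeded Smarca4, the leading SWI/SNF ATPase, by a log2 difference of 1.31 ± 0.04, and Smarca4 exceeded Smarca5 by 0.88 ± 0.03, each in 4 of 4 libraries (exact p of 1 in 8). The highest ATPase genes of the CHD, SWI/SNF and ISWI families thus ranked Chd4, Smarca4 and Smarca5. In TPM, Chd3 (97.1) and Chd1 (92.5) lay close below Smarca5 (104), and Ino80 was at 60.3. In CPM the means of Chd1 (321) and Chd3 (239) were higher than that of Smarca5 (237). All 12 other NuRD genes tested lay above 1 CPM. The histone chaperone Rbbp7 was at 546 TPM, the scaffold subunit Mta2 at 370.0 TPM and Mbd3, the methyl-binding-domain subunit, at 272 TPM.

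In the first CHD class, which is known for binding to transcribed chromatin, Chd1 was at 88.9, 91.6, 96.05 and 93.7 TPM and Chd2 at 37.1, 40.9, 42.7 and 41.6 TPM. Chd1 took 69.6% ± 0.680 of the pair. Both values carry an annotation limit. The deposited Chd1 model ends at position 17394898 of chromosome 17, while the later GENCODE M21 model ends at 15772610, and 3196 of its 11917 deposited exon bases lie outside the M21 span. The TPM of Chd1 was divided by the longer length. Of the Chd2 exon bases, 18.4% are shared with 1810026B05Rik (14.0 CPM) on the same strand.

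In the third class, Chd8 was at 38.2 ± 1.04 TPM, Chd7 at 21.96 ± 1.13, Chd6 at 10.998 ± 0.565 and Chd9 at 8.77 ± 0.213 TPM. These are among the longest genes in the set. Chd7 is the gene of CHARGE syndrome, and Chd8 a gene tied to autism. Their order was the same in 4 of 4 libraries for the 3 pairs compared, with Chd8 over Chd7 by 0.80 ± 0.05, over Chd6 by 1.79 ± 0.04 and over Chd9 by 2.11 ± 0.04 on the log2 scale. Chd1l (ALC1), a remodeller activated by poly-ADP-ribose at DNA damage, was at 73.1 ± 2.52 TPM. Of the 10 CHD genes, 9 lay above 1 CPM.

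All 5 INO80 genes lay above 1 CPM, with TPM summing to 242 ± 3.92. The INO80 complex slides nucleosomes and handles the histone variant H2A.Z. Its ATPase gene Ino80 was at 56.0, 60.3, 63.8 and 61.2 TPM. The accessory subunits ranged from Ino80d (17.5 ± 0.905 TPM) to Ino80e (75.6 ± 3.08 TPM), with Ino80c at 47.4 ± 2.77 and Ino80b at 41.5 ± 2.34 TPM. Each of 18 other INO80, SRCAP and TIP60 genes lay above 1 CPM as well. The AAA+ helicase genes Ruvbl2 (319 TPM) and Ruvbl1 (186 TPM), shared by these complexes, were the highest, followed by Mcrs1 (117 TPM).

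The BET proteins carry paired bromodomains and recruit the transcription elongation machinery to acetylated chromatin. Brd2 (chr17:34112023-34122634, minus strand) was at 224, 226, 242 and 238 TPM. Brd3 was at 49.9, 53.6, 53.6 and 51.0 TPM. The ranges of both genes did not overlap, and Brd2 exceeded Brd3 by 2.16 ± 0.06 on the log2 scale in 4 of 4 libraries (exact p of 1 in 8). Each was steady, with a coefficient of variation of 3.10%.

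Brd1, a scaffold of histone acetyltransferase complexes, was at 39.4 ± 1.20 TPM, and Brd8, of the TIP60 complex, at 46.0 ± 1.29 TPM. Of 21 bromodomain genes outside the naming rule, 21 lay above 1 CPM. The highest were Trim28 (KAP1, the corepressor of KRAB zinc finger proteins) at 655 TPM, Atad2 at 138 TPM and the acetyltransferase gene Kat2a at 93.6 TPM. The lowest, Brdt, the BET gene known for its role in the testis, was at 1.85 ± 0.40 CPM and was named after its value was seen.

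The ARID3, ARID4 and ARID5 genes encode DNA-binding proteins that are not subunits of SWI/SNF, and they were lower, with a median of 14.6 TPM over 7 genes. Arid3a (Bright), known for B cell immunoglobulin transcription, was at 23.96, 29.8, 28.5 and 26.4 TPM. Arid3b was at 8.501, 9.66, 9.39 and 8.53 TPM, below Arid3a in every library. Arid3c had 2 counts, both in replicate 3, and was called below 1 CPM (limma adjusted p = 4.82e-10), a call that ended without replicate 3, where it had no count.

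Arid4a, which binds the retinoblastoma protein, was at 37.6 ± 2.41 TPM, and Arid4b, of the SIN3 complex, at 12.3 ± 0.448 TPM. Arid4a exceeded Arid4b in 4 of 4 libraries, by 1.61 ± 0.11 on the log2 scale. Without the length correction the means lay closer, at 61.5 CPM for Arid4a and 49.0 CPM for Arid4b. Arid5a, an RNA-binding stabiliser of cytokine transcripts in inflammatory T cells, was at 13.99, 18.02, 16.1 and 15.4 TPM. Arid5b, the partner of the demethylase PHF2, was at 13.1, 14.8, 15.3 and 15.4 TPM. This was the 1 pair of 25 whose order in TPM did not hold in all libraries. Arid5a was the higher in 3 of 4, and the log2 difference of 0.11 ± 0.12 was within its own spread (exact p = 0.25). Without the length correction Arid5a exceeded Arid5b in every library, with means of 58.0 and 42.9 CPM. In the other 24 pairs the order held in 4 of 4 libraries at an exact p of 1 in 8. With Benjamini-Hochberg adjustment none could pass 0.05.

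Of the 2 genes named for a neighbour, Brd3os was at 1.14, 1.93, 1.11 and 0.768 CPM, on both sides of 1 CPM, and could not be placed (limma adjusted p = 0.381). Without replicate 2 its log2 distance from the threshold turned from 0.21 to -0.0089, and tested in TPM it lay above the threshold of 1 (log2 difference of 1.01, limma adjusted p = 0.00457). Ino80dos was at 0.141, 0.200, 0.344 and 0.431 CPM, under 1 CPM in every library (limma adjusted p = 0.000149). Its exons share 431 bases with Ino80d and 489 bases with Ndufs1 on the opposite strand, where the levels were 90.3 and 129 CPM. The counting used the strand.

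Between replicates the members were about as steady as other genes in their CPM range. The coefficient of variation of the 43 members above 1 CPM had a median of 3.78%, from 1.53% (Smarcb1) to 10.5% (Arid5a), beside a median of 4.19% over the 7428 genes in the same CPM range. With edgeR's goodness-of-fit test, 0 of the 45 members tested varied more than genes of like abundance at an adjusted p under 0.05. The share over all 13279 genes tested was 0.422%, so a count of 0 among 45 lies near it. At an unadjusted p under 0.05 there was 1 member, Arid5a (edgeR adjusted p = 0.529), against 770 genes (5.80%). With 1 common dispersion for all genes in place of the trend, 1 member was called, Brd3os (edgeR adjusted p = 0.00634), beside 873 genes in all. Arid5a was at 51.5, 66.1, 58.1 and 56.4 CPM, with replicate 2 the highest. None of the partner genes in the 6 lists was called variable. By Dixon's criterion 1 library stood apart from the other 3 in 4 of the 43 members above 1 CPM, against 5.09% of all genes above 1 CPM. Replicate 1 was that library in Chd4 and Smarcc2, where it was low, and in Brd7, where it was high.

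A small offset of 1 library ran across the members. Replicate 1 held the lowest CPM in 26 of the 43 members above 1 CPM (60.5%), against 28.4% of all genes in the same CPM range. The median log2 deviation of the members from their own mean was -0.05 in replicate 1 and 0.02, 0.02 and 0.01 in replicates 2 to 4. The genes with the largest replicate 1 deficits included Arid5a, Arid3a and Arid5b, and those above the mean there included Smarce1 and Ino80c.

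Gene length moved with this offset. Among members with at least 6000 exon bases, replicate 1 was the lowest in 22 of 31 (71.0%), against 42.2% of 2446 genes of that length and CPM range. Among members of 3000 to under 6000 bases it was the lowest in 4 of 9, against 27.8% of genes, and among those under 3000 bases in 0 of 3, against 12.1%. The Spearman correlation of the replicate 1 deviation with exon length was -0.38 across the 43 members and -0.36 across all 7428 genes. Replicates 2, 3 and 4 were at 0.001, 0.12 and 0.27 across the members. Across all 7428 genes they were at 0.06, 0.39 and 0.02, so replicate 3 was also related to length there. These points are genes of the same 4 libraries, so no p is given. The part of length in the members' offset was not tested.

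**Figure D4:**
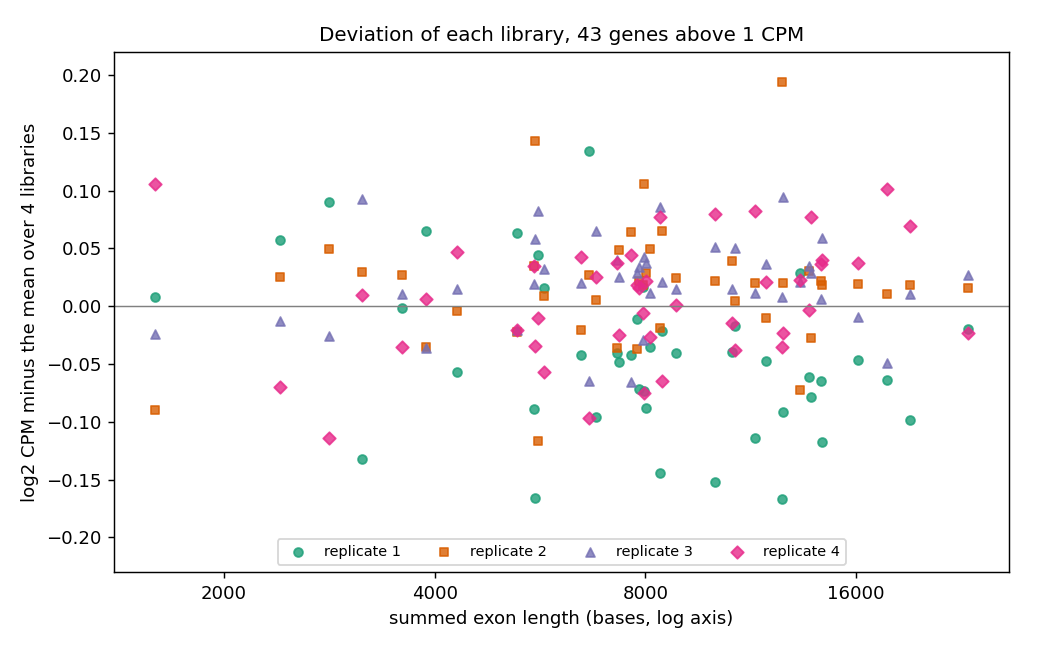
Log2 CPM of each library minus the mean of the 4 libraries for each of the 43 members above 1 CPM, against summed exon length on a log axis. The replicate 1 points (circles) lie mostly below 0 among the longer genes, where replicate 1 was the lowest library in 22 of 31 members with 6000 or more exon bases.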

How the data were processed

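RNA-seq of mouse T cells gave 4 libraries of 1 group. The authors deposited unnormalized counts for each gene. Per the file headers these came from featureCounts 1.4.6-p4 over exons of GENCODE M13, with both ends mapped and strand option 2, from STAR alignments. Per the labels, mm10 was the assembly. Trimming, the STAR version and the treatment of multi-mapped reads are not given in the sources. Symbols and biotypes came from GENCODE M21 (50376 of 50600 genes matched, 99.6%). The replicate number in the header matched that of the labels in 4 of 4 files.

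CPM (counts over the library total) and TPM (from counts and the deposited exon lengths) were computed from the counts. Levels were tested with limma 3.58.1 (R 4.3.3, intercept only, trend, one-sided in each direction) on log2(CPM + 0.1) against 1 CPM, with Benjamini-Hochberg adjusted p under 0.05. This is no contrast between groups. Variability used edgeR 4.0.16 with TMM scaling, filterByExpr and a goodness-of-fit test at its trended dispersion. Pairs were compared by differences of log2(TPM + 0.1) within a library with an exact two-sided sign-flip test; the pseudocount understates differences of low genes. Promoter windows came from RefSeq (GRCm38.p6), copies from blastn 2.17.0+ (at least 95% identity over 200 bases). Other tools were DESeq2 1.42.0 (size factors), scipy 1.17.1, numpy 2.4.6, pandas 2.3.3, matplotlib 3.10.9 and python 3.11.15. The tests were tried on simulated data.

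Depth was 45110199 to 127755788 counts per library. The floor of 3 counts covers counting error only. The members, lists, pairs and tests were chosen with earlier results of these data known. Every member could be named, but the values of 1 are not reported here. Of each list of partner genes, the 3 highest in TPM and every gene not above 1 CPM were named, and of the cell markers those above 1 CPM. Alternatives changed the scaling, filter, pseudocount, threshold, unit, dispersion and depth, and left out each library in turn.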

Additional observations from a re-analysis of the deposited data

Results flagged for a closer look

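In 6 genes, 1 library stood apart from the other 3 by Dixon's criterion on CPM, which chance meets in about 1 of 20 groups. For Chd4, replicate 1 was low at 1047 CPM against 1129 to 1142 CPM in the others. For Smarcc2, replicate 1 was low at 137 CPM. For Brd7, replicate 1 was high at 100.6 CPM. For Smarcad1, replicate 2 was low at 63.7 CPM. Smarcd3 (0.0470 CPM) and Arid3c (0.0157 CPM) were flagged high in replicate 3, the deepest library, because it alone held their counts, 6 and 2. Among members above 1 CPM, 4 of 43 were flagged, where 5.09% of 11081 genes above 1 CPM were.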

How the results depend on the processing

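The number of members above 1 CPM was 43 or 44 under every alternative tried. The number below 1 CPM, 3 as reported, was 5 with a threshold of 2 CPM, 0 when filterByExpr genes alone were tested (none of the 3 passes that filter), and 1 to 3 when a library was left out, with 1 without replicate 3, where Smarcd3 and Arid3c had no count. With a threshold of 2 CPM, the log2 distance turned to -0.72 for Brd3os and -0.83 for Chd5. In TPM it was -1.17 for Chd5 and 1.01 for Brd3os. In CPM, when a library was left out, it was -0.0089 to 0.40 for Brd3os, negative without replicate 2. The cause was not tested. A common dispersion called 1 member and 873 genes as variable, against 0 and 56 as reported, and leaving out a library gave 33 to 40 genes, from fewer samples. Without length correction, the log2 difference was -0.82 for Brd9 over Brd7 and 0.62 for Pbrm1 over Brd7. All other values of single members and pairs (1098) kept their direction and side, apart from 2 that passed the threshold, both of Brd3os (in TPM and with a common dispersion). No paired comparison between groups was possible because the labels give 1 group, while pairs of genes were compared within each library. With 4 libraries the exact test could not go below 1 in 8, and genes with few counts, such as Chd5, Brd3os and Ino80dos, carry the least depth.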
